A study of Mus musculus with 6 samples.

Results

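The baseline described here is the solvent control of a study of mouse embryonic stem cells differentiating in culture. The 3 arrays were chosen by their titles, DMSO replicates 1 to 3, and make up 3 of the 6 arrays of the series; the other 3 are samples treated with trichostatin A and enter no value below. Stem cells of the 129/Ola strain were grown on gelatin in N2B27, a medium without serum in which such cells leave pluripotency and tend toward neural fates. Each sample is labelled as day 3 of differentiation with 24 h of DMSO, so the cells had received the solvent and are not strictly untreated, and the series describes the replicates as independent experiments. No genotype, sorting or clone is given in the labels, so each value is an average over all cells of a dish, in which fewer cells of a type and less RNA per cell cannot be told apart. Total RNA was amplified, labelled with Cy3 and hybridised to single-colour Agilent arrays, 1 sample per array. With 1 group of 3 arrays no comparison of conditions exists and no test was run: the text gives levels, detection and the spread between the 3 experiments. Each DMSO array lay on a slide of its own, so experiment, slide and scan cannot be told apart.

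Cells leaving the pluripotent state pass through a formative and then a primed stage, in which naive factors such as Esrrb and Klf4 decline while Pou5f1 and Sox2 stay on and Fgf5, Otx2 and Dnmt3b rise. Primed cells can take a neural route, marked by Sox1, Pax6 and Nes, or, under Nodal, WNT and BMP signals, a primitive streak route marked by T and Eomes, from which mesoderm and the Foxa2- and Sox17-positive endoderm arise. The Nodal antagonists Cer1 and Lefty1 and the homeobox gene Lhx1 mark the anterior end of that route, and Cdx and Hox genes mark caudal tissue. A culture at this stage is therefore a place where several programs can be read side by side.

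Levels are log2 signals minus the 75th percentile of the same array, so 0 is the signal that the upper 25% of the non-control spots exceeded, and each unit is 2-fold. Counted by gene, with the probe of highest mean, 38.1% of measured genes (7153 of 18753) had mean levels above it. Counts above the percentile in a list are read against that share. That percentile was 632, 654 and 926 intensity units on replicates 1, 2 and 3. A probe counts as detected where the scanner software placed it well above background, which held for 65.6%, 68.9% and 72.3% of 43379 spots. No spot was saturated (0 on each array). Across 13727 detected genes the arrays correlated at 0.986 (replicates 1 and 2) and 0.989 (replicate 3 with either), as a description across genes, which are not independent replicates. Replicates 1, 2 and 3 were the highest array for 36.5%, 38.9% and 24.6% of these genes and the lowest for 26.0%, 30.5% and 43.5%, the shares against which counts of highest and lowest arrays in a list are read. The added control RNAs lay 1.72, 1.92 and 1.23 above the percentile, so with them as the reference every gene on replicate 3 would move by 0.58 against the mean of the other arrays, every gene on replicate 2 by -0.44 and every gene on replicate 1 by -0.14. Differences between arrays below are relative to the percentile, and the order of arrays for whole gene groups is read against all genes, where such a constant shift drops out. Levels of different probes are not compared with each other, because each probe binds with its own strength.

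The cells expressed the general pluripotency program together with that of the primed epiblast. Pou5f1, the POU factor that defines pluripotent cells, had intensities of 16600, 23600 and 10190 units and levels of 4.71, 5.17 and 3.46 on replicates 1, 2 and 3 (mean 4.45 ± 0.89, SD, n = 3). Sox2, its partner factor, had levels of 1.48, 1.35 and 1.27 (mean 1.37 ± 0.10, SD, n = 3). Both genes were detected in every experiment; Sox2 stayed within a range of 0.21, while Pou5f1 was lower on replicate 3 than on either other array, by 2.39-fold against the nearer of them. All 14 measured genes of the core pluripotency list were detected on all 3 arrays, against 73.2% of all measured genes (13734 of 18753), and all 14 had mean levels above the 75th percentile. Among them were Lin28a, an RNA-binding inhibitor of let-7 maturation, at 4.25, 4.34 and 4.02, and Sall4, a zinc finger factor, at 3.77, 3.64 and 3.20. Of this list 2 of 14 genes (14.3%), Pou5f1 and the Nodal co-receptor gene Tdgf1, spanned at least 2-fold, beside 7.69% of all detected genes, and the median range was 0.50 beside 0.38.

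The primed epiblast list was also detected in full, at 17 of 17 genes, 16 of them with mean levels above the percentile. Fgf5, a secreted growth factor that marks the postimplantation epiblast, had levels of 2.95, 2.92 and 2.21 (mean 2.69 ± 0.42, SD, n = 3). Pou3f1, a POU factor of primed and early neural cells, stood at 6.49, 6.04 and 5.97, and the de novo DNA methyltransferase Dnmt3b at 6.09, 5.59 and 5.45. Otx2, a homeobox factor of the epiblast and anterior brain, lay at 1.72, 1.29 and 1.33. Replicate 1 was highest for 14 of the 17 genes and replicate 3 for 0, with a median range of 0.51. The median difference of replicate 3 from the average of both others was -0.29 for the list and -0.08 for all detected genes; with the control RNAs as reference these values became 0.29 and 0.50. Foxd3, a forkhead repressor, was the only gene of the list with a range of at least 2-fold, at 0.91, -0.27 and -0.50.

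Naive pluripotency genes were still detected at day 3, again 17 of 17. Mean levels were above the percentile for 9 of 17, fewer than in the primed list, beside 38.1% of all measured genes. At least 2-fold was spanned by 4 of 17 (23.5%), beside 7.69% of all detected genes. Klf2 and Klf4, Krüppel-like factors of the naive network, had levels of 5.64, 5.85 and 5.13 and of 0.45, 0.83 and 0.82. Zfp42, also known as Rex1 and a classical marker of the naive state, had levels of 1.08, 1.15 and 2.01. Esrrb, an orphan nuclear receptor, gave -1.10, -0.43 and 0.48. Dppa3, a maternal factor that protects methylation, gave -3.28, -1.54 and -0.83, a 5.43-fold range. For both genes replicate 1 was lowest and replicate 3 highest. That order was common in the list: replicate 3 was highest for 13 of the 17 genes and replicate 1 lowest for 11, the reverse of the primed list, for which replicate 3 was lowest for 12 of 17, beside the shares over all genes of 24.6% (replicate 3 highest), 26.0% (replicate 1 lowest) and 43.5% (replicate 3 lowest). No probe was named for Nanog, Fgf4 or Prdm14, whose levels are not analysed here.

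**Figure D1:**
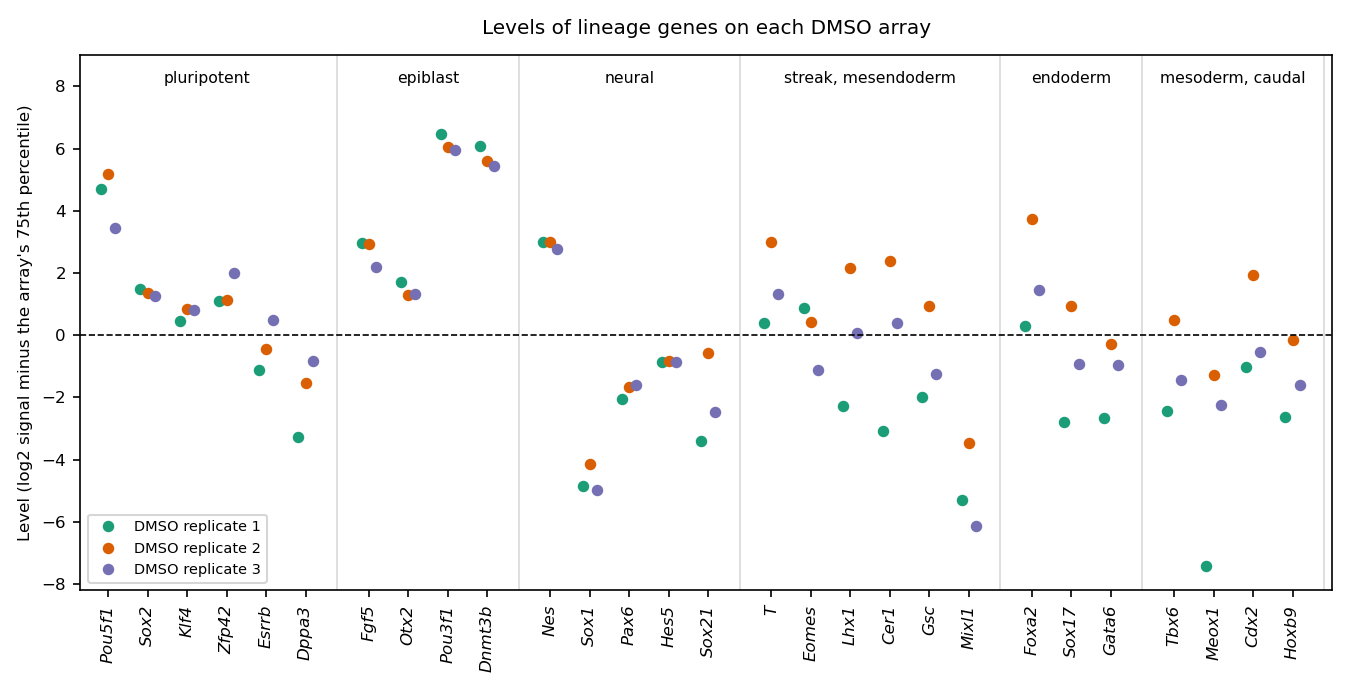
Levels of 28 lineage genes on each DMSO array, in log2 units relative to the array's 75th percentile (dashed line); each point is 1 array, coloured by replicate, and the gene names are grouped by the program they mark. The epiblast points lie close together, whereas streak and endoderm genes such as Cer1 and Foxa2 are spread, with replicate 2 on top; the replicate 1 point of Meox1 is not above background.

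Neural genes were mixed. Nes, the intermediate filament nestin of neural progenitors, had levels of 3.00, 2.99 and 2.77 (mean 2.92 ± 0.13, SD, n = 3), a range of 0.23 that sits below the median range of 0.38 over all detected genes. Nestin is also made by other dividing cells, so its level alone does not name a lineage. Sox1, a SoxB1 factor of committed neuroectoderm, gave only 21.9, 36.6 and 29.5 intensity units, or levels of -4.85, -4.16 and -4.97, while the reference point was 632 units or more. Pax6, a paired box factor of the neural tube, lay at -2.05, -1.66 and -1.61, and Hes5, a Notch target, at -0.88, -0.83 and -0.87. Of the 20 genes of the neural progenitor list 19 were detected on all 3 arrays, beside 73.2% of all measured genes, and Dbx1 on 0. Mean levels were above the percentile for only 4 of 20, beside 38.1% of all measured genes: Nes, Vim, Ncam1 and Sox11. Regional identity genes were largely off or low. In the forebrain and midbrain list 8 of 18 genes were detected on all 3 arrays, below the 73.2% of all measured genes. A further 7 were on 0 arrays, among them En1, Nkx2-1 and Six6. Mean levels were above the percentile for 0 of the 18.

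The neuronal list, by contrast, was detected for 17 of 19 genes (89.5%), beside 73.2% of all measured genes, with Snap25 on 0 arrays and Neurog2 on 1. Mean levels were above the percentile for only 5 of 19, beside 38.1% of all measured genes. Among these 5 were Tubb3, the neuronal beta-tubulin, at 1.70, 1.62 and 1.08, and Syn1, a synaptic vesicle protein, at 3.81, 4.43 and 3.60. The median levels of the detected genes of the list were -1.57, -1.91 and -1.66 on replicates 1, 2 and 3. Dcx, a microtubule protein of migrating neurons, was the 1 gene of the list with a range of at least 2-fold, at -2.43, -3.98 and -4.56. The proneural factor Neurog1 was detected at -3.06, -2.46 and -3.35. Of the glial genes 7 of 12 (58.3%) were detected, without Gfap and Mog (0 arrays each), beside 73.2% of all measured genes. Of the neural crest genes 12 of 14 (85.7%) were detected, with 0 of 14 above the percentile.

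Primitive streak genes were all detected, and here the experiments parted. T, the T-box factor brachyury, had intensities of 838, 5238 and 2341 units and levels of 0.41, 3.00 and 1.34 (mean 1.58 ± 1.31, SD, n = 3). Foxa2, a forkhead factor of anterior streak and endoderm, had levels of 0.30, 3.73 and 1.46 (mean 1.83 ± 1.75, SD, n = 3), with 8688 units on replicate 2 against 777 on replicate 1. Both were on in each experiment and highest on replicate 2, 6.04-fold and 10.8-fold over replicate 1. Nodal itself, the ligand that drives this route, did not follow them, with levels of 3.33, 3.33 and 2.79.

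Cer1, a secreted antagonist of Nodal, BMP and WNT, had the widest range of any detected gene, 43.7-fold, at -3.08, 2.37 and 0.39. Lhx1, a LIM homeobox factor of the anterior streak, had levels of -2.29, 2.17 and 0.07, and its antisense neighbour Lhx1os -3.93, -0.08 and -1.76. Wnt3a, a ligand of the posterior streak, gave -3.98, -0.71 and -4.19, and Gsc, a homeobox repressor of the organizer, -1.98, 0.95 and -1.24. These genes shared replicate 2 as the highest array. Across the list 13 of 19 genes (68.4%) spanned at least 2-fold, beside 7.69% of all detected genes. Replicate 2 was highest for 17 of 19, Nodal among them by only 3.331 against 3.327 on replicate 1, beside 38.9% of all detected genes. The exceptions were Eomes, a T-box factor of streak and trophoblast, with 0.88, 0.41 and -1.14, and Lefty2, a Nodal antagonist, with -1.89, -1.50 and -0.65. As a median over the list, an array differed from the average of both others by -0.81, 1.44 and -0.41 on replicates 1, 2 and 3, beside 0.05, 0.05 and -0.08 over all detected genes.

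Definitive endoderm genes were likewise highest on replicate 2, and lowest on replicate 1. Sox17, an endodermal HMG box factor, had levels of -2.78, 0.95 and -0.94, and Hhex, a homeobox factor of anterior endoderm, -1.63, 0.20 and -0.78. This order held for all 11 genes detected on all 3 arrays, of 15 measured, and the median deviations were -1.84, 1.40 and -0.03. The detected share of the list, 73.3%, was that of all measured genes (73.2%). Pdx1 and Cldn8, genes of later gut derivatives and epithelia, were detected on 0 arrays. Shh, a hedgehog ligand, was not above background on replicate 1 and stood at -2.46 and -3.60 on replicates 2 and 3, whose mean was at least 6.23-fold above it. Extraembryonic endoderm genes were detected for 13 of 18 (72.2%), near the 73.2% of all measured genes, with Ttr and Apoa1 on 0 arrays. Replicate 2 was highest for all 13, with a median deviation of 0.88 beside 0.05 over all detected genes. Gata6 gave -2.68, -0.29 and -0.96.

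Mesoderm genes were detected less completely than the streak and endoderm lists, with 10 of 20 on all 3 arrays, 6 on 1 or 2 and 4 on 0. Tbx6, a T-box factor of presomitic mesoderm, had levels of -2.45, 0.49 and -1.44. Meox1 and Foxc2, factors of the somites, were not above background on replicate 1 and lay at least 15.02-fold and 9.05-fold higher on the mean of the other arrays. The muscle factors Myod1 and Myf5 and the lateral mesoderm factor Foxf1 were detected on 0 arrays. Caudal genes followed the streak pattern: Cdx2, a caudal homeobox factor also active in trophoblast, gave -1.01, 1.93 and -0.53, and Hoxb9 -2.62, -0.16 and -1.61. Of the 36 measured genes of the Hox clusters 17 (47.2%) were detected on all 3 arrays, beside 73.2% of all measured genes. All 17 were highest on replicate 2, and 14 (82.4%) spanned at least 2-fold, beside 7.69% of all detected genes. Olfactory receptors, mostly of low signal, were also highest on replicate 2, for 97 of 114 detected genes. Their median deviation there was smaller, 0.46 beside 1.35 for the Hox genes, and 14.0% of them spanned at least 2-fold. Hoxc8, Hoxd10 and Hoxa10 were detected on 0 arrays. Aldh1a2, which makes retinoic acid, and Cyp26a1, which degrades it, both belonged to this pattern, with -3.26, 0.64 and -1.14 and with -2.40, 1.30 and 0.20.

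Signalling genes were read by their role in each pathway. Of 21 FGF ligands 9 were detected on all 3 arrays and 8 on 0, with Fgf5 and Fgf8 the 2 whose mean levels exceeded the percentile, while all 12 genes of the FGF receptor and feedback list were detected. Dusp6, a phosphatase induced by ERK signalling, stood at 3.95, 4.46 and 4.10. WNT ligands were detected for 14 of 19, with Wnt8a at 1.35, 2.0 and 2.13 and Wnt3 at 0.36, 0.75 and 0.12, and WNT receptors, inhibitors and targets for 21 of 21. Dkk1, a secreted WNT inhibitor, was the widest of that list, at -2.02, 1.26 and -0.15. In the Nodal and activin list 20 of 21 genes were detected, the receptor Acvr1c on 0 arrays, and the signal transducers Smad2 (1.04, 1.13 and 1.03) and Smad4 (3.94, 4.08 and 3.83) stayed within 0.25. BMP genes were detected for 18 of 21, and 7 of 18 (38.9%) spanned at least 2-fold, beside 7.69% of all detected genes. Among them were Bmp2 (-5.41, -2.42 and -3.35), of low signal, and the target Id1 (-1.77, 0.54 and 0.02). The Notch and hedgehog lists had 15 of 18 and 12 of 14 genes detected. Beside the 73.2% of all measured genes, detection was 42.9% for FGF ligands and 73.7% for WNT ligands. It was 85.7% for BMP, 83.3% for Notch and 85.7% for hedgehog genes.

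Housekeeping and growth programs were on throughout and alike in the 3 experiments. All 15 reference housekeeping genes were detected and 0 spanned at least 2-fold; Gapdh, a glycolytic enzyme, had levels of 8.04, 8.15 and 7.98, and Tbp, the TATA-binding protein, -0.74, -0.95 and -0.75. The lists for glycolysis (20 genes), the citric acid cycle (15), replication licensing (19), mitosis (19), chaperones (15), splicing (18), DNA methylation (13), Polycomb (18) and histone deacetylases (13) were likewise detected in full, with 0 genes spanning at least 2-fold in each. Median ranges in these lists lay between 0.22 for mitosis and 0.40 for DNA methylation, around the 0.38 of all detected genes. Among families defined by symbol, all 79 cytosolic ribosomal protein genes, 75 mitochondrial ribosomal protein genes, 36 NADH dehydrogenase subunits and 52 initiation factors were detected. Ribosomal protein genes sat lowest on replicate 3 for 72 of 79, with median deviations of 0.22, 0.10 and -0.32; on replicate 3 the control RNAs as reference would add 0.58 to this value and to the -0.08 of all detected genes, which turns the sign of both.

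At the other end were the sensory receptors and some, but not all, lists of differentiated tissues. Of 887 olfactory receptor genes 114 (12.9%) were detected on all 3 arrays and 1 had a mean level above the percentile, and of 131 vomeronasal receptors 7 (5.34%) were detected. These receptors are known from sensory neurons, and why some of them were flagged as detected here was not tested. Adult liver genes were detected for 2 of 7 (28.6%), Pax genes for 2 of 9 (22.2%) and keratin-associated proteins for 9 of 41 (22.0%). Blood and endothelial genes were detected for 7 of 15 (46.7%), and the share over all measured genes was 73.2%. Alb, serum albumin, Lyz2, a lysozyme of myeloid cells, and the embryonic globin Hba-x were on 0 arrays. The lymphocyte and myeloid list reached 8 of 12 (66.7%), near the share of all measured genes and mostly at low signal. Lck (0.98, 0.71 and 0.81) was its 1 gene above the percentile. The fibroblast and smooth muscle list was detected for 13 of 15 genes (86.7%), above the share of all measured genes. Some smooth muscle genes lay above the percentile: Acta2, smooth muscle actin, had levels of 3.72, 3.85 and 4.03, Tagln 4.53, 5.48 and 5.52, and Cnn1 3.80, 4.25 and 4.27, while Myh11, the myosin of mature smooth muscle, lay at -4.51, -4.52 and -4.52.

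**Figure D2:**
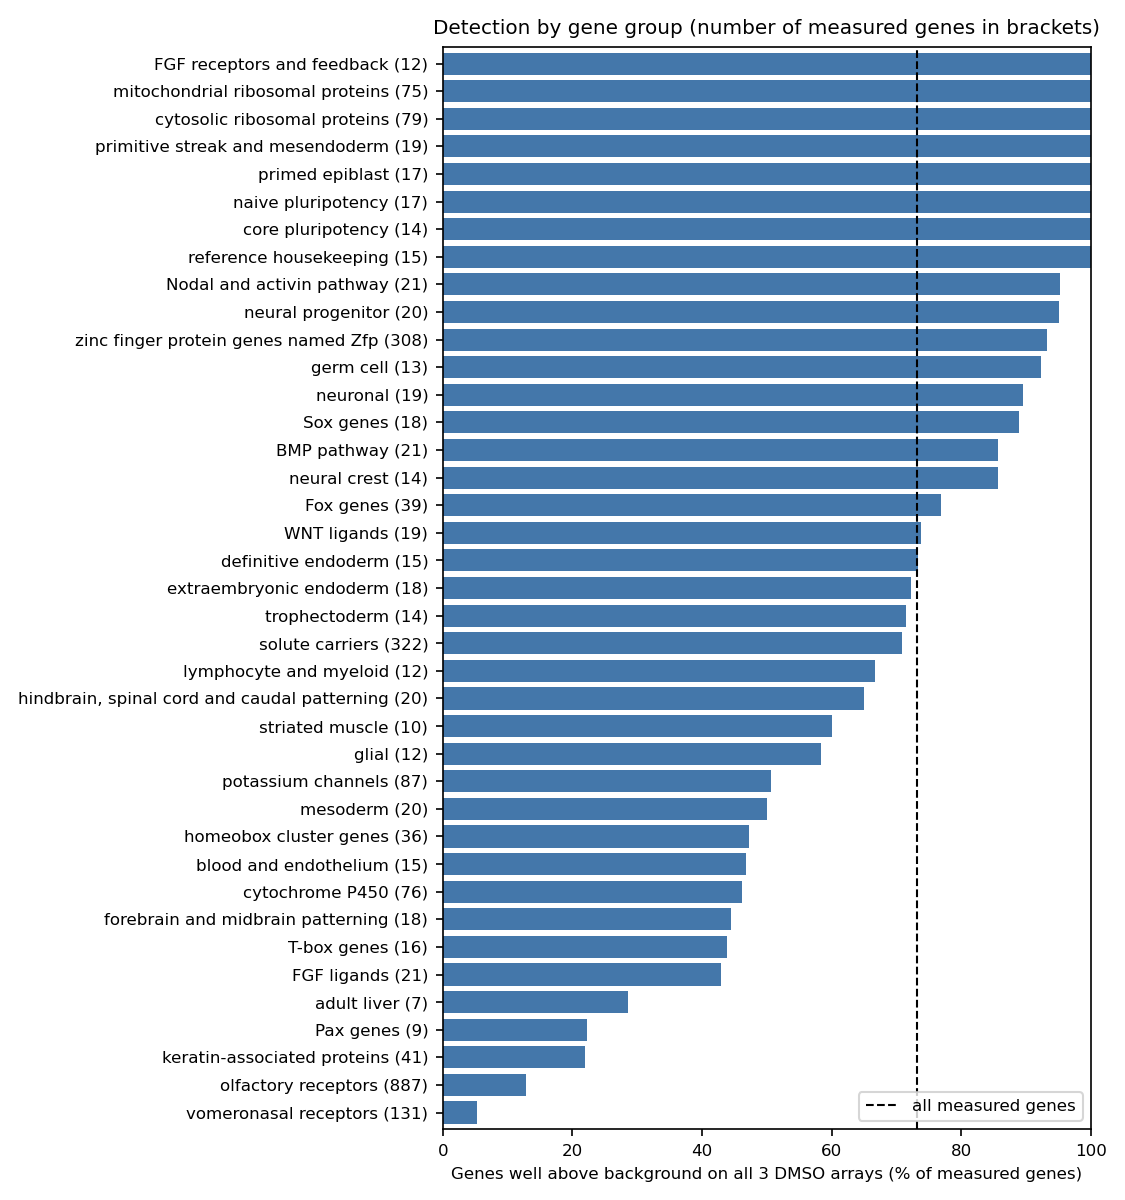
Share of measured genes that were well above background on all 3 DMSO arrays, for 39 gene lists and symbol families (bars, in percent; number of measured genes in brackets), with the dashed line at the 73.2% of all measured genes. Pluripotency, epiblast, streak and ribosomal lists reach 100%, and olfactory and vomeronasal receptors lie at 12.9% and 5.34%.

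Detection varied with the base composition of the promoter. Most genes used by all cells have promoters rich in CpG, the dinucleotide that is depleted elsewhere in the genome, whereas many tissue-restricted genes do not. RefSeq promoter windows (GRCm38.p6, 250 bases before the start and 50 after) matched 14914 genes, 81.5% of the measured genes on the chromosomes used. With genes sorted into 5 equal groups by observed over expected CpG, 31.0% were detected on all 3 arrays in the lowest group, 59.2% and 87.5% in the next groups, and 93.8% and 95.7% in the upper ones. Without the olfactory and vomeronasal receptors the lowest group still stood at 36.8%. The detected genes of the lowest group also differed more between experiments, with 15.04% spanning at least 2-fold against 3.40% in the highest; the part of signal strength in this difference was not tested. Promoters with the letters TATAAA on the sense strand 35 to 15 bases before the start, 379 or 2.54% of all, belonged to genes of which 45.6% were detected; TATAAA anywhere on either strand occurred in 12.04% of promoters, with 49.4% detected, against 76.7% of genes without it. The following pair, picked after their values were seen, shows both kinds, with every CG in capitals and the 250 bases before the start read on the sense strand. Fgf5 has 24 CG and 70.8% G and C; Alb, detected on 0 arrays, has 2 and 39.2%.
Fgf5 (chr5:98253934-98254183, plus strand): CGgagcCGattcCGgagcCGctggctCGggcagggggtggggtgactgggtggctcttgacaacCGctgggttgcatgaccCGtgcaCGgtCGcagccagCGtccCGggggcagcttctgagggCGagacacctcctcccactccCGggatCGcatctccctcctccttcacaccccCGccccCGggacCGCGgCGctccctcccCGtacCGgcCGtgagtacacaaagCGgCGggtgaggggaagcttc
Alb (chr5:90460620-90460869, plus strand): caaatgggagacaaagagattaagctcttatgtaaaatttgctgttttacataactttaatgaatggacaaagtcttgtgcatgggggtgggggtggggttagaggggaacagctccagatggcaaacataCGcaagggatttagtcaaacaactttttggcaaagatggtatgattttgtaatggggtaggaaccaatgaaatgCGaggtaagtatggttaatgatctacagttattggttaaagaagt

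**Figure D3:**
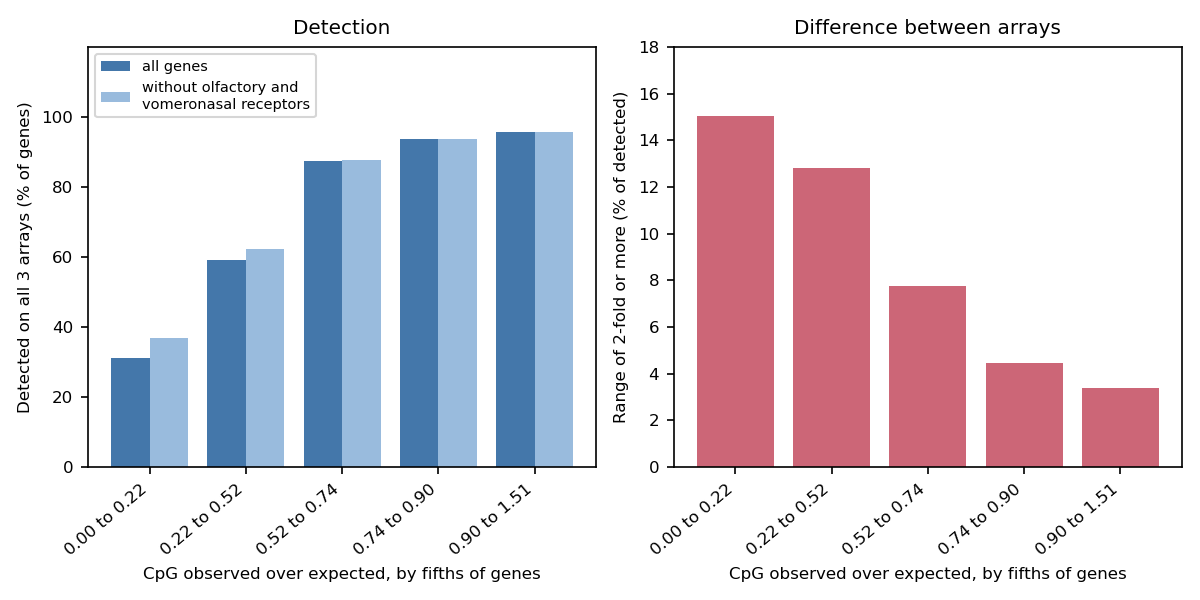
Genes in 5 equal groups of promoter CpG observed over expected (x axis, with the limits of each group): left, percent of genes detected on all 3 arrays, with and without the olfactory and vomeronasal receptors; right, percent of detected genes that spanned at least 2-fold over the 3 arrays. Detection climbs from 31.0% to 95.7% while the share with a wide range drops from 15.04% to 3.40%.

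Between experiments most genes agreed closely and a small set differed by a lot. The median range over 13727 detected genes was 0.38 (1.17 at the 95th percentile) and the median SD 0.20, against a median SD of 0.050 to 0.065 among the 10 repeated spots of a probe within an array. A range of at least 2-fold was seen for 1056 genes (7.69%), of at least 4-fold for 168 and of at least 8-fold for 36. Low signals spread more: 19.5% of genes with mean levels below -4 spanned at least 2-fold, 16.6% of those from -4 to -2, and 0.980% of those above 4. Replicate 2 was highest for 603 (57.1%) of the 1056 genes and replicate 1 lowest for 610 (57.8%). Where such a gene had a further detected probe, in 197 cases, that probe was highest on the same array in 166 (84.3%) and spanned at least 2-fold in 121.

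Genes set apart on 1 array were counted where it lay at least 2-fold above, or at least 2-fold below, both others. Replicate 1 lay below for 217 genes (1.58%) and above for 36 (0.262%). Replicate 2 had the opposite split, above for 198 (1.44%) and below for 19 (0.138%), and replicate 3 was above for 40 (0.291%) and below for 47 (0.342%). With the control RNAs as reference the split changed to 272 below and 15 above on replicate 1, 149 below and 46 above on replicate 2, and 3 below and 408 above on replicate 3, because that reference moves whole arrays. On the percentile scale 24 genes were 4-fold below on replicate 1 and 9 were 4-fold above on replicate 2.

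**Figure D4:**
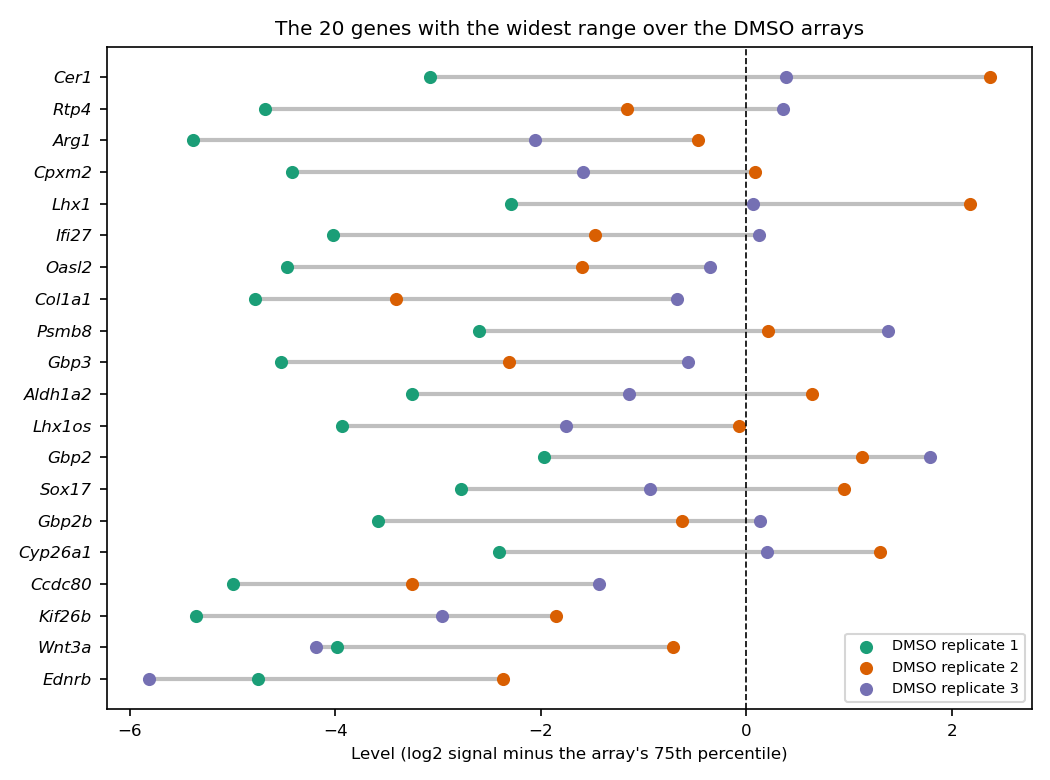
The 20 named genes with the widest range over the DMSO arrays; each point is the level on 1 array in log2 units relative to its 75th percentile, and the grey line joins the lowest and the highest. Replicate 1 is lowest for 18 of them, Wnt3a and Ednrb being the exceptions.

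The genes highest on replicate 2 included the streak, endoderm and caudal genes described above. Besides them, Ednrb, an endothelin receptor of neural crest, had levels of -4.75, -2.37 and -5.81, but its further probe spanned only 0.54. Aplnr, the apelin receptor of nascent mesoderm, gave -3.56, -0.22 and -2.21, and Sptb, a spectrin, -4.74, -2.41 and -4.91. Arg1, the urea cycle enzyme arginase, gave -5.39, -0.47 and -2.06, and Cpxm2, a carboxypeptidase-like protein, -4.42, 0.08 and -1.59, with 3.87 as the range of its further probe. A list of cilia and node genes, written after these values were seen, went the same way. Foxj1, the master factor of motile cilia, had levels of -1.39, 1.40 and -0.44, and Dynlrb2, a dynein light chain, -4.41, -1.15 and -3.21. Of the 19 detected genes of that list 12 (63.2%) spanned at least 2-fold, beside 7.69% of all detected genes. Among all detected genes with mean levels from -4 to -2 the share was 16.6%. Replicate 2 was highest for 17 of the 19, and the median deviations of the list were -0.86, 1.29 and -0.21. The neural progenitor list leaned in this direction too, with replicate 2 highest for 16 of 19 (Sox21 at -3.39, -0.57 and -2.46). The share was 38.9% over all detected genes and 97 of 114 among olfactory receptors. The median deviation on replicate 2 was 0.73 for the neural list and 0.46 for those receptors. Nes and Hes5 stayed within 0.23 and 0.05, and the relation of neural to streak values was not tested.

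Replicate 2 was lowest for another group. Of the genes farthest below on it, Sycp1 and Sycp2 encode parts of the synaptonemal complex, which joins paired chromosomes in meiosis, and Smc1b a subunit of meiotic cohesin. Sycp1 had levels of -4.28, -5.71 and -4.06, Sycp2 of -3.66, -5.72 and -4.05, and Smc1b of -1.22, -2.78 and -0.77. All 3 were lower on replicate 2 than on either other array. Sycp1 and Sycp2 had only 12.5 and 12.4 units there, near the lowest signal well above background on that array, 10.2 units. In a meiosis list written after these values were seen 19 of 21 genes (90.5%) were detected, beside 73.2% of all measured genes. Of these 19, 6 (31.6%) spanned at least 2-fold, beside 7.69% of all detected genes. The list was of low signal, with median levels of -2.76, -2.78 and -2.08. Among all detected genes with mean levels from -4 to -2, 16.6% spanned at least 2-fold. Replicate 2 was lowest for 13 of 19, beside 30.5% of all detected genes. Rec8, a meiotic cohesin, stayed within 0.21. Spo11, the nuclease that starts recombination, was lowest on replicate 1, at -4.95, -4.57 and -4.59. Others farthest below on this array were Nupr1, a stress-induced nuclear protein (1.38, 0.25 and 1.60), and Slc7a11, the cystine transporter (-3.67, -4.88 and -3.79).

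Genes lowest on replicate 1 held, besides the endoderm genes, a group that interferons induce. Rtp4, an interferon-induced chaperone, had levels of -4.68, -1.16 and 0.36, a 32.9-fold range. Gbp2, a guanylate-binding GTPase of cell-autonomous defence, had levels of -1.97, 1.13 and 1.79, and Psmb8, an immunoproteasome subunit, -2.60, 0.21 and 1.38, with 3.79 as the range of its further probe. Oasl2, related to the oligoadenylate synthetases, gave -4.47, -1.60 and -0.35. Isg15, a ubiquitin-like modifier, and Usp18, which removes it, were not above background on replicate 1 and were at least 31.3-fold and 17.1-fold higher on the mean of the other arrays. All of these were lowest on replicate 1 and highest on replicate 3, an order different from the streak genes. In a list of interferon-stimulated genes written after these values were seen, 30 of 38 genes were detected on all 3 arrays. Of these 30, 13 (43.3%) spanned at least 2-fold, beside 7.69% of all detected genes. Replicate 1 was lowest for 25 and replicate 3 highest for 25, beside 26.0% and 24.6% of all detected genes. The median deviations were -0.75, 0.23 and 0.62. The list was not uniform: Rsad2 (-3.92, -3.75 and -3.98), Ifit2 (-2.55, -3.26 and -2.43) and Irf7 (-5.17, -5.86 and -5.95) did not follow.

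Many interferon-induced promoters carry an interferon-stimulated response element, searched here as the letters GAAANNGAAA on either strand of the 300-base window. It was present in 485 promoters (3.25% of all), in 15 of the 29 list genes with a promoter (51.7%), and in 20 of 161 genes that lay at least 2-fold below on replicate 1 (12.4%). Seen from the promoters, 20 of 298 detected genes with the letters (6.71%) lay below on replicate 1, against 141 of 10650 without them (1.32%). The genes of the list are part of these counts, and a match of letters is not a bound site. Promoters with the letters, the 250 bases before the start read on the sense strand in GRCm38.p6, are shown for Gbp2 and Isg15, given above, and for the GTPases Gbp3 (levels -4.53, -2.31 and -0.57) and Irgm1 (-2.29, 0.13 and 0.35). All of those shown carry the letters, unlike the list as a whole. Isg15, not above background on replicate 1, is outside the counts of genes that lay below on that array. Capitals mark the matched letters, overlapping matches included; in Gbp2 and Gbp3 the match lies on the opposite strand and so reads as its complement.
Gbp2 (chr3:142620413-142620662, plus strand): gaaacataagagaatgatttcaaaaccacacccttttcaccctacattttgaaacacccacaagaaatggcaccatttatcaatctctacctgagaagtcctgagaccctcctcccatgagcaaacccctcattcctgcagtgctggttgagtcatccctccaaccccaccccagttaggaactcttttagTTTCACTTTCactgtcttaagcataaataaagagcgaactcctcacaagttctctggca
Gbp3 (chr3:142559794-142560043, plus strand): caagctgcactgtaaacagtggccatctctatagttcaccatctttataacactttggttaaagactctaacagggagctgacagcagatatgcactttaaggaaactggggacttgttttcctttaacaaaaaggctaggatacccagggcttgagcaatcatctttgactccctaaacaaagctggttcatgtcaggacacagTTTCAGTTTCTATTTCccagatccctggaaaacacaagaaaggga
Isg15 (chr4:156200819-156201068, minus strand): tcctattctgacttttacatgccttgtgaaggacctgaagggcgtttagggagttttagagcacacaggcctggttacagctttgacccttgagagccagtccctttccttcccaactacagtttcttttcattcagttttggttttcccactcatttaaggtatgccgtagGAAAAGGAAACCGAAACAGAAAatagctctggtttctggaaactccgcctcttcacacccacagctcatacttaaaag
Irgm1 (chr11:48871421-48871670, minus strand): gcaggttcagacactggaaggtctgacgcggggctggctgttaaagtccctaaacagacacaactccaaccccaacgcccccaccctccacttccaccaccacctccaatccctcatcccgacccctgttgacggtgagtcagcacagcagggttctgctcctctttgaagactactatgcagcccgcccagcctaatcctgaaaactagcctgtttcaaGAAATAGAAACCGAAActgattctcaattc

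Fibroblast genes shared the order of the interferon genes in part. Col1a1 and Col3a1, fibrillar collagens of mesenchymal cells, had levels of -4.78, -3.40 and -0.68 and of -4.71, -3.99 and -1.43, 6.62-fold and 5.87-fold higher on replicate 3 than on the nearer other array. Ccdc80, a matrix protein, gave -4.99, -3.26 and -1.43, and Postn, a matrix protein of fibroblasts, was not above background on replicate 1 and gave -5.41 and -4.0 on the others. In the fibroblast and smooth muscle list, 13 of 15 genes (86.7%) were detected, beside 73.2% of all measured genes. Of these 13, 5 (38.5%) spanned at least 2-fold, beside 7.69% of all detected genes. Replicate 1 was lowest and replicate 3 highest for 8 each, beside 26.0% and 24.6% of all detected genes. The median deviations were -0.47, -0.02 and 0.32. Dcn, Thy1 and Mmp2, which also mark fibroblasts, went the other way or stayed level, with -0.45, -0.98 and -0.89, with 2.71, 1.91 and 1.81, and with -0.40, -0.37 and -0.71, and Lum was on 0 arrays. The part of fibroblast-like cells in the interferon and naive gene values was not tested.

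**Figure D5:**
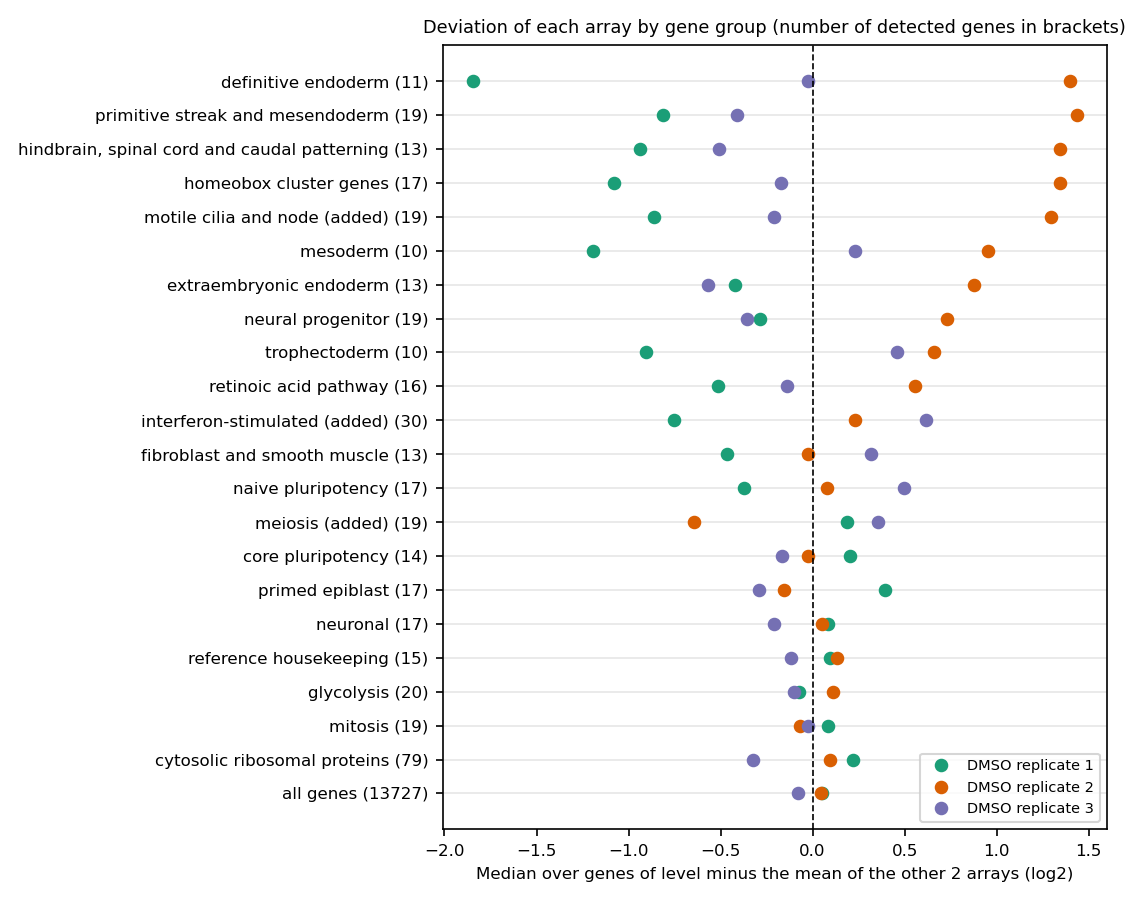
Median over the detected genes of a list (number in brackets) of the difference between 1 array and the average of both others, in log2 units; points are the 3 DMSO replicates and the bottom row is all detected genes. Replicate 2 stands to the right for endoderm, streak, caudal, Hox and cilia genes, replicate 3 for interferon, naive and fibroblast genes, and housekeeping lists cluster at 0.

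The sign of these list medians was checked under each scaling that was run. The higher streak, endoderm, caudal, cilia and neural progenitor values of replicate 2, the lower values of replicate 1 in those lists and in the interferon, naive and fibroblast lists, and the higher values of replicate 3 in the latter kept their sign throughout. With the control RNAs as reference the median over all detected genes was itself 0.50 on replicate 3 and -0.39 on replicate 2. The medians on replicate 3 then turned positive for the streak (0.17), caudal (0.07), cilia (0.37), neural progenitor (0.23) and core pluripotency (0.42) lists, all still below that of all genes, and for the definitive endoderm list (0.56), which lay above it. The interferon and naive lists turned negative on replicate 2 (-0.21 and -0.36), above the value of all genes there. For the reference housekeeping genes, with medians of 0.10, 0.13 and -0.12 on replicates 1, 2 and 3, no direction held across the scalings, all alternatives but the control RNAs staying within 0.19 of 0.

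Single genes stood out on replicates 1 and 3 as well. On replicate 1 Xist, the RNA that coats the inactive X chromosome, had a level of -0.88 against -3.11 and -2.50, and its further probe was highest on the same array; Tsix, its antisense RNA, gave -1.19, -1.93 and -0.86. The Y-linked genes Eif2s3y (1.62, 0.91 and 1.61) and Ddx3y (0.21, -0.57 and 0.08) were detected on all 3 arrays and lowest on replicate 2, while Kdm5d and Usp9y were on 0 arrays. Also higher on replicate 1 were Dcx, given above, Has3, a hyaluronan synthase (-2.96, -4.52 and -5.69), and the receptor pseudogene Olfr29-ps1 (-2.77, -5.75 and -6.13). On replicate 3, Inhba, an activin subunit, gave -5.61, -5.86 and -3.71, Tnnt2, cardiac troponin T, -5.47, -5.58 and -3.40, and Emp1, a membrane protein, -4.51, -3.28 and -1.74. Lower on replicate 3 were Eomes and Pou5f1, given above, and Cubn, the endocytic receptor cubilin of visceral endoderm, at -1.36, -0.97 and -3.15.

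At the edge of detection the arrays differed in number. Replicates 1, 2 and 3 detected 13910, 14552 and 14889 genes, and 1446 genes (7.71%) were detected on 1 or 2 arrays only. Genes detected on replicate 1 alone numbered 73, of which 57 were at least 2-fold above the mean of the other arrays, each taken as the higher of its lowest signal well above background and the gene's own signal; the numbers were 67 of 196 on replicate 2 and 24 of 469 on replicate 3. Among the largest such bounds were those of Tnfrsf17, a receptor of plasma cells, with 164 units on replicate 1 against 2.96 and 2.64 (at least 20.3-fold above that mean), and of Olfr92 and Rdh1 on the same array (at least 18.3-fold and 12.1-fold above it). On replicate 2 they were those of Kcnn3, a potassium channel, with 90 units against 4.83 and 8.61 (at least 9.57-fold above the same kind of mean), and Fbxo48 (at least 8.21-fold). These bounds hold for the mean of the 2 arrays below background, not for each of them. Each of these rests on a single array with no replicate. In the other direction 596 genes were missed on replicate 1 alone, 79 on replicate 2 and 16 on replicate 3. The percentile intensity was lowest on replicate 1 and highest on replicate 3, and its part in these numbers was not tested.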

How the data were processed

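The 3 DMSO arrays of 6 were used, grouped by their titles; the labels' replicate numbers name independent experiments. Per the file headers, the deposited intensity values come from Agilent Feature Extraction (10.7 in the submitters' processing notes), whose processed signal is background-subtracted but not scaled between arrays. The authors also deposited a table of log2 values, with a normalization that is not stated in the sources used here; it served as an alternative.

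Control spots and outlier-flagged spots (57 to 69 an array) were dropped. Processed signals were put on the log2 scale, centred on the array's own 75th percentile and averaged over the spots of a probe. Of 41174 probes 27484 were named through RefSeq accessions (0 with several genes) and 13690 were not, giving 18753 genes, each shown by its probe with the highest mean. A gene is detected where any probe is flagged well above background; a bound sets the mean of detected arrays against the higher of a gene's own signal and the lowest signal so flagged. Ranges cover genes above background and unsaturated on all 3 arrays. With 1 group there is no test; the number of arrays limits the precision. The counting of ranges was tested on simulated data. Promoter windows came from RefSeq (GRCm38.p6); chromosome 18 was left out, and 18303 measured genes lie elsewhere. The array annotation follows another build, so no gene positions are given.

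Genes, lists and rules were chosen with earlier results of these data known, and the interferon, cilia and meiosis lists after the values here were seen. Named genes were markers, list members, the 20 widest ranges, the 10 farthest above and below on each array and the 10 largest bounds, clone-like symbols passed over. Alternatives were another detection flag, single or averaged probes, outlier spots kept, quantile or median scaling, normexp (offset 50; R 4.3.3, limma 3.58.1) on median spot signals, the authors' table, other filters and thresholds, each array left out and, added later, control-RNA scaling and receptors left out. Values were computed in Python 3.11.15 (numpy 2.4.6; pandas 2.3.3) and drawn with matplotlib 3.10.9.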

Additional observations from a re-analysis of the deposited data

How the results depend on the processing

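No paired analysis was possible because only the DMSO group was used. The number of genes detected on all 3 arrays (13734) and the list members detected (573 of 684) stayed within 1.5 times under the alternatives run; the softer flag for signals significantly above background left 1301 genes on 0 arrays in place of 3573. Leaving out an array gave a 2-fold difference for 505 to 653 genes, against a range that wide for 1056 over all 3 arrays, which has more pairs to differ. The counts of 2-fold ranges and of genes apart on 1 array (557 in all) were 410 and 191 with normexp, 167 and 74 among genes with mean levels above the 75th percentile, and 168 and 38 at 4-fold; the authors' table gave 337 genes apart. With the control RNAs as reference they were 2901 and 893. Replicate 1 below and replicate 2 above were the most frequent kinds under each setting except that one, where replicate 3 above led. The streak list stayed higher on replicate 2, by 0.74 to 1.44 over the settings and by 1.68 with replicate 3 left out. The share detected in the upper promoter group exceeded that in the lowest by 64.6 points, by 59.2 to 64.5 with an array left out, and by 58.9 without the receptors. Subtracting the array median moved the mean level of Pou5f1 from 4.45 to 7.78, as that reference is lower for every gene. Genes apart could not be counted with 2 arrays. For the normexp and authors' table counts the cause was not tested.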

Other observations

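Trophectoderm genes mark the outer layer of the blastocyst and its placental derivatives. Of 14 measured, 10 (71.4%) were detected on all 3 arrays, near the 73.2% of all measured genes. Of these 10, 7 (70.0%) spanned at least 2-fold, beside 7.69% of all detected genes. Replicate 1 was lowest for all 10, and the median deviations were -0.91, 0.66 and 0.46, with the same signs under each scaling that was run. Tfap2c, an AP-2 factor of trophoblast and germ cells, had levels of -1.14, 0.38 and 0.55, and Tead4, a factor of the early trophectoderm, -2.88, -1.61 and -1.65. The keratins of simple epithelia in this list gave 4.28, 6.06 and 5.88 for Krt8 and 5.04, 6.36 and 6.34 for Krt18. Replicate 1 was thus below both others in each of these 4 genes, whereas Elf5, a factor of trophoblast stem cells, was detected on 0 arrays.

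Of the germ cell list 12 of 13 genes were detected on all 3 arrays, beside 73.2% of all measured genes. The list was of low signal, with median levels of its detected genes of -3.11, -2.89 and -3.01. Mean levels were above the percentile for only 2 of 13, beside 38.1% of all measured genes. These were Ddx4, an RNA helicase of germ cells, at 0.70, -0.17 and 0.63, and Mael, a piRNA pathway gene, at 0.90, 0.50 and 1.04. Of 6 genes of the early cleavage state 3 were detected on all 3 arrays, below the 73.2% of all measured genes. Zscan4c was among them, at -2.84, -3.74 and -3.70, and its near-identical relatives may share the probe. The epithelial genes Cdh1 (4.20, 4.01 and 4.12) and Cldn7 (3.79, 3.75 and 3.30) and the mesenchymal filament gene Vim (3.84, 4.93 and 4.51) were detected together.

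Stress genes were lowest on replicate 2 for 9 of 16 and highest on replicate 3 for 13 of 16, beside 30.5% and 24.6% of all detected genes. Hmox1, heme oxygenase, gave -0.18, -1.16 and 0.87, and the hypoxia gene Egln3 -0.46, -0.06 and 0.78, while Asns, asparagine synthetase, was level at 6.54, 6.39 and 6.64. Zinc finger genes named Zfp were detected for 287 of 308, and replicate 2 was lowest for 160 of the 287, beside the same 30.5%. On the X chromosome 484 of 685 genes (70.7%) were detected, beside 73.2% of all genes, and 56 spanned at least 2-fold (11.6%, beside 7.69%).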
